A study of Mus musculus with 22 samples.

Results

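The transcriptional responses of the mouse liver to a high-fat diet (HFD) and to a methionine- and choline-deficient diet (MCD) were set against each other, and genes were sorted by whether they moved in the same or in opposite directions. The comparison used the 15 vehicle-treated libraries of 22 in the series. They came from liver of male wild-type C57BL/6J mice, in 2 cohorts that the labels also name as batches. The HFD cohort had 3 livers on normal diet (ND, disease state given as normal) and 4 on HFD (given as MASLD, metabolic dysfunction-associated steatotic liver disease). The MCD cohort had 4 livers on ND and 4 on MCD (given as MASH, metabolic dysfunction-associated steatohepatitis). The 7 remaining livers also received the compound DTMB and were left out, and the sources used here give no vehicle, duration of feeding, age or diet composition. Each diet was compared with the ND group of its own cohort, and the difference of differences was the HFD effect minus the MCD effect in 1 model of all 15 libraries. The diet and the cohort cannot be told apart in that difference.

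HFD feeding loads the liver with dietary fat and is used as a model of steatosis with obesity and insulin resistance. MCD feeding removes the precursors of phosphatidylcholine, which the liver needs to export triglyceride as lipoprotein, and is used as a model of steatohepatitis with weight loss. In both models fat accumulates in hepatocytes, while sterol synthesis, fatty acid oxidation, sex-biased gene expression and inflammation are each under separate transcriptional control in the liver, by SREBP2, PPARα, growth hormone with STAT5B, and interferon or NF-κB signalling.

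Libraries held 54604704 to 66727450 counts, and 16291 of 45777 genes passed the filter on low counts and were tested. Levels of single genes are given as CPM, the count scaled to a library of fixed size with TMM factors, and summed marker levels as CPM of all counts without those factors. Summed hepatocyte markers stood at 76940 to 130200 CPM in all 15 livers. Of the 8 single markers 5 fell and 1 rose on MCD, with a median log2 fold change of -0.68, and 1 fell on HFD. Among all genes tested 23.2% fell and 22% rose on MCD, and 7.05% fell on HFD. Some libraries stood apart in markers of other tissues. Acinar pancreas markers summed to 1639 and 1478 CPM in the first and the third ND liver of the HFD cohort. They summed to 548 and 3737 CPM in the first and the fourth HFD liver and to 445 CPM in the fourth ND liver of the MCD cohort, and to at most 22.7 CPM elsewhere. Summed lymphocyte markers reached 194 CPM in HFD replicate 2 against 9.35 to 19.9 CPM in the other HFD livers, skeletal muscle markers 212 CPM in ND replicate 1 of the HFD cohort, and immediate-early genes 714 CPM in MCD replicate 2 against 232 to 278 CPM in the other MCD livers. Without the 5 libraries over 100 CPM of acinar markers a single ND liver remained in the HFD cohort, and 30 genes were then called in the HFD effect, 5418 in the MCD effect and 1368 in the difference.

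MCD changed more genes than HFD, and of the genes called on both diets 642 moved in the same and 761 in opposite directions, a balance that turned in some alternative runs. Genes were called at a Benjamini-Hochberg adjusted p below 0.05 in edgeR's quasi-likelihood test, over all genes tested. HFD changed 2442 genes (15% of those tested), 1294 higher (7.94%) and 1148 lower (7.05%). MCD changed 7366 genes (45.2%), 3584 higher (22%) and 3782 lower (23.2%). Scaled by library size alone, which moved the median of all genes to 0.14 on HFD and 0.46 on MCD on the log2 scale, the calls split into 1962 higher and 492 lower on HFD and 8065 higher and 1349 lower on MCD. Leaving out 1 library at a time gave 1116 to 2964 genes for HFD and 6489 to 7286 for MCD, with 1116 genes without ND replicate 1 of the HFD cohort, 1457 without its ND replicate 2, and 1614, 1566 and 1528 without HFD replicates 1, 2 and 4.

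In the same direction were 642 genes (3.94% of those tested), 369 higher on both diets (2.27%) and 273 lower on both (1.68%). In opposite directions were 761 genes (4.67%), 450 higher on HFD and lower on MCD (2.76%) and 311 lower on HFD and higher on MCD (1.91%). The shared genes made up 26.3% of the HFD calls and 8.72% of the MCD calls, and the opposite genes 31.2% and 10.3%. Shared genes outnumbered opposite ones in some other runs. With changes of at least 1 on the log2 scale on both diets, 254 genes were shared and 165 opposite. With library size alone, 959 genes were higher and 69 lower on both diets, and the opposite classes held 338 and 292. Without HFD replicate 3 the classes held 415, 226, 360 and 243 genes in the same order. Without ND replicate 2 of the MCD cohort they held 424, 262, 389 and 269. Among genes with effects of opposite sign, the larger of the 2 adjusted p-values lay between 0.04 and 0.05 for 108 genes and between 0.05 and 0.06 for another 99. Across all 16291 genes the diet effects had a Pearson correlation of 0.131 and a Spearman correlation of 0.0838, given as a description since genes are not independent replicates.

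**Figure D1:**
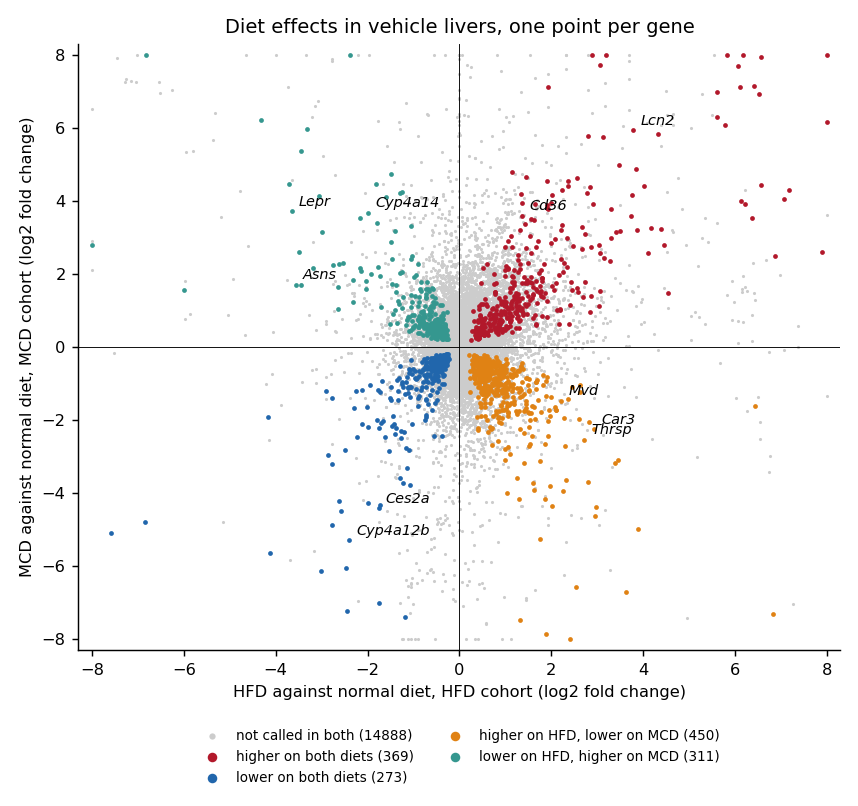
Each point is 1 of 16291 genes, with the log2 fold change of HFD against normal diet on the horizontal axis and of MCD against normal diet on the vertical axis; colours mark the 369, 273, 450 and 311 genes called on both diets, and points past the axis limits are drawn at the edge. The coloured points fill all 4 quadrants, with Lcn2 high on both diets and Lepr, Asns, Thrsp and Car3 in the opposite quadrants.

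The difference of differences was called for 5284 genes (32.4%), 2820 with the HFD effect above the MCD effect (17.3%) and 2464 below it (15.1%). Scaled by library size alone, 1628 lay above and 4445 below. All 761 opposite genes were among the 5284, as were 106 of the 642 shared genes. For the opposite genes this was all but fixed by their calls in both directions in the same fit. Of the 1039 genes called on HFD alone 622 had a called difference, and of the 5963 called on MCD alone 3360 did, so for the others a separate response to the 2 diets was not shown.

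Lepr and Cyp4a14 were among the genes of largest opposite change, lower on HFD and higher on MCD; positions are from RefSeq (GRCm38.p6). The leptin receptor Lepr (gene ID 16847, chr4:101717137-101815352) stood at 21.5, 47.3 and 29.4 CPM on ND and 2.38, 2.48, 2.86 and 2.66 CPM on HFD. In the MCD cohort it stood at 7.64, 0.890, 1.99 and 2.29 CPM on ND and 46.4, 49.3, 57.7 and 16.7 CPM on MCD. Every HFD liver was below every ND liver of its cohort and every MCD liver above every ND liver of its cohort. The log2 fold changes were -3.65 (SE 0.56, adjusted p = 0.000869) on HFD and 3.72 (SE 0.54, adjusted p = 7.6e-05) on MCD, a difference of -7.37 (SE 0.78, adjusted p = 7.86e-06). Cyp4a14 (gene ID 13119, chr4:115486200-115496158), a fatty acid omega-hydroxylase and PPARα target, had 9176, 8992 and 9398 CPM on ND and 2277, 2499, 2844 and 1662 CPM on HFD. In the MCD cohort its level was 159, 216, 333 and 103 CPM on ND and 3060, 2031, 1925 and 3355 CPM on MCD. The HFD and MCD livers overlapped, while the ND livers lay above them in the HFD cohort and below them in the MCD cohort. Its log2 fold changes were -1.99 (SE 0.32, adjusted p = 0.00114) and 3.68 (SE 0.32, adjusted p = 7.63e-07).

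Asns (gene ID 27053, chr6:7675165-7693209), asparagine synthetase, was opposite from overlapping ND levels in the 2 cohorts. Its ND livers had 7.00, 13.9 and 9.05 CPM in the HFD cohort and 14.6, 6.04, 5.29 and 8.57 CPM in the MCD cohort. It fell to 1.22, 0.348, 0.810 and 0.985 CPM on HFD and rose to 39.7, 25.3, 24.5 and 23.2 CPM on MCD, and the diet livers lay wholly outside the ND range of their cohort on opposite sides of it. The log2 fold changes were -3.56 (SE 0.41, adjusted p = 0.000145) on HFD and 1.70 (SE 0.35, adjusted p = 0.00121) on MCD, while the ND groups differed by 0.20 (SE 0.37, adjusted p = 0.746). Tuba8, an alpha-tubulin, moved likewise, from 10.1, 4.79 and 6.33 to 1.09, 0.729, 1.22 and 1.13 CPM on HFD and from 13.3, 4.07, 4.21 and 2.66 to 17.9, 17.1, 32.7 and 48.8 CPM on MCD. Its groups did not overlap in either cohort, and its ND groups differed by 0.22 (SE 0.49, adjusted p = 0.798).

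The other genes chosen by effect size in this class were Btg3, an antiproliferative protein, Agap2, an Arf GTPase-activating protein, Cux2, a female-biased liver transcription factor, Acot5, a peroxisomal acyl-CoA thioesterase, and Myom1, a sarcomere protein. Btg3 changed by -2.31 (SE 0.28) on HFD and 1.84 (SE 0.25) on MCD on the log2 scale, and Agap2 by -1.92 (SE 0.41) and 2.01 (SE 0.38). Cux2 changed by -3.06 (SE 0.85) and 4.15 (SE 0.83), and its HFD call rested on few counts and was lost without ND replicate 2 of the HFD cohort, where the log2 fold change was -1.72, and without HFD replicates 1 or 2. Acot5 had no count in the 4 ND livers of the MCD cohort, and its level on MCD was at least 75.9-fold higher, set against a floor of 3 counts over that group, which covers counting error only. On HFD it changed by -2.39 (SE 0.45). Myom1 had 11.7, 2.63 and 3.45 CPM in the ND livers of the HFD cohort, the first of which is the library with 212 CPM of muscle markers, and 0.483, 0.513, 0.513 and 0.598 CPM on HFD, with log2 fold changes of -3.49 (SE 0.41) and 2.60 (SE 0.41); the part of muscle RNA in these values was not tested.

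Thrsp, Car3, Hsd3b2 and Hsd3b3 were among the genes of largest opposite change in the class higher on HFD and lower on MCD. Thrsp (gene ID 21835, chr7:97412933-97417550), the lipogenic protein Spot 14, had 9.09, 9.93 and 7.08 CPM on ND and 34.3, 61.4, 60.8 and 72.7 CPM on HFD. In the MCD cohort it had 129, 377, 377 and 332 CPM on ND and 57.8, 19.9, 66.9 and 64.5 CPM on MCD. The diet livers of the 2 cohorts overlapped, whereas the ND livers of the HFD cohort were all lower than both and those of the MCD cohort all higher. The log2 fold changes were 2.72 (SE 0.44, adjusted p = 0.00125) and -2.54 (SE 0.39, adjusted p = 0.000107), with a difference of 5.26 (SE 0.59, adjusted p = 1.32e-05). Car3, carbonic anhydrase 3, rose from 179, 331 and 550 to 2610, 2756, 2258 and 3128 CPM on HFD and fell from 1689, 2372, 2613 and 2856 to 399, 410, 478 and 723 CPM on MCD. Car3 is also abundant in adipose tissue, and the 8 other tested members of the adipose and mesothelial marker list were called in neither diet effect. Of the 9 tested members, Car3 included, 4 had CPM above 1 in 3 libraries. The part of adipose RNA in the Car3 values was not tested.

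The 3-beta-hydroxysteroid dehydrogenases Hsd3b2 and Hsd3b3, which act on steroid hormones and lie next to each other on chromosome 3, moved together. Hsd3b2 rose from 3.93, 9.04 and 10.2 to 29.5, 31.9, 29.0 and 27.6 CPM on HFD and fell from 47.3, 42.1, 50.7 and 50.1 to 9.86, 7.94, 6.99 and 10.1 CPM on MCD. Hsd3b3 changed by 1.97 (SE 0.22) on HFD and -1.89 (SE 0.20) on MCD on the log2 scale. These are near-identical copies, and how the counting divided shared reads is not stated, so single values are uncertain. Saa4, a constitutive serum amyloid A apolipoprotein, changed by 1.94 (SE 0.24) and -2.04 (SE 0.22). B4galnt3, a glycosyltransferase, changed by 1.75 (SE 0.32) and -3.12 (SE 0.31), the lectin Clec2h by 2.32 (SE 0.56) and -3.64 (SE 0.48), and prokineticin 1, Prok1, by 1.98 (SE 0.58) and -3.82 (SE 0.59). The HFD call of Clec2h was lost without ND replicate 1 or 2 of the HFD cohort, and that of Prok1 without ND replicate 1 or 2 or any 1 of the 4 HFD replicates.

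**Figure D2:**
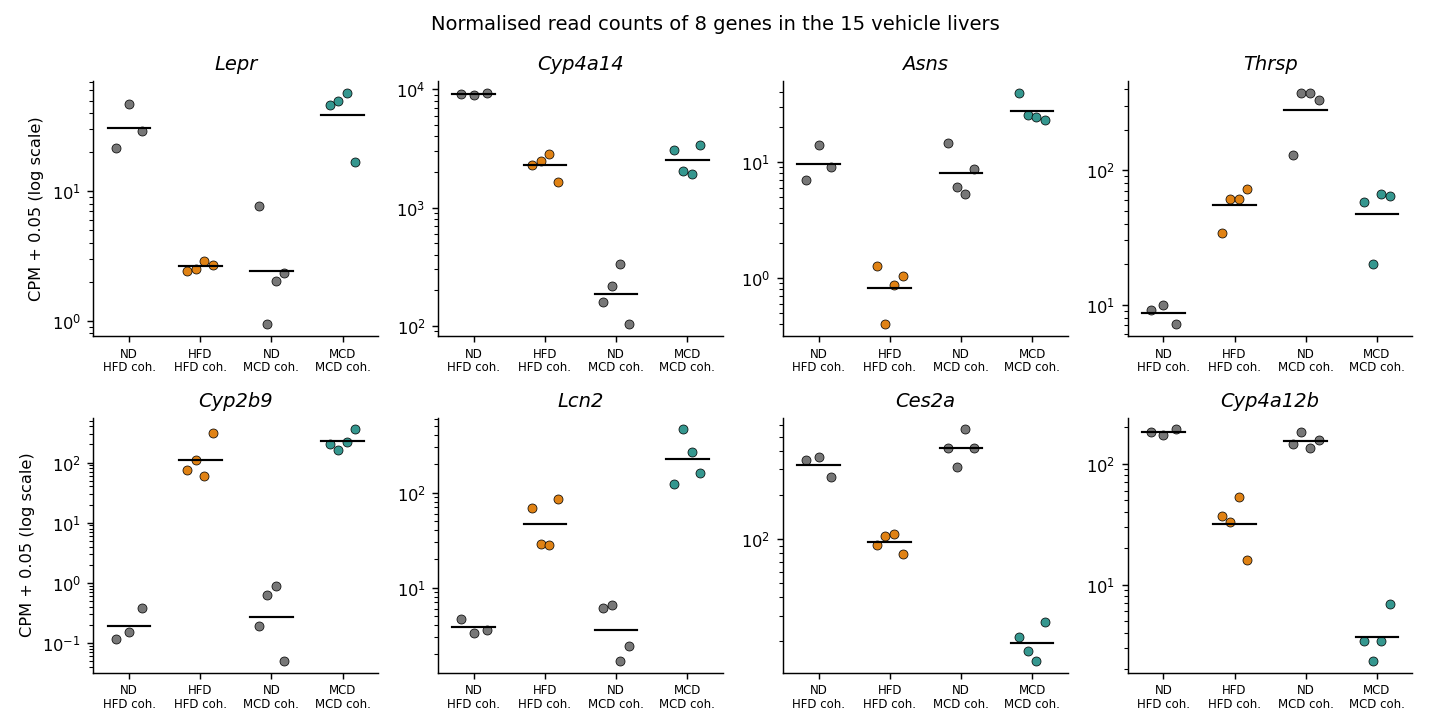
Each point is 1 liver, with the normalised level in CPM plus 0.05 on a log axis and the geometric mean of each group as a bar, for the ND and HFD livers of the HFD cohort and the ND and MCD livers of the MCD cohort. In the top row Lepr, Cyp4a14, Asns and Thrsp moved in opposite directions on the 2 diets, and in the bottom row Cyp2b9 and Lcn2 were higher and Ces2a and Cyp4a12b lower on both.

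Cholesterol synthesis was the list with the highest count of opposite members among those described here. Of its 24 tested members, 15 rose and 0 fell on HFD, and 20 fell and 0 rose on MCD. Among all genes tested 7.94% rose on HFD and 23.2% fell on MCD. In the class higher on HFD and lower on MCD were 14 members, against 2.76% of all genes. The median log2 fold change of the list was 0.81 on HFD and -1.15 on MCD, against 0.00 and 0.01 over all genes tested. A difference was called for 21 members, against 32.4% of all genes. The ND groups, HFD cohort against MCD cohort, differed by a median of -2.14 in this list. The 14 opposite members spanned 0.63 to 2.22 on HFD and -1.79 to -0.65 on MCD. Mvd (gene ID 192156, chr8:122433596-122443422), mevalonate diphosphate decarboxylase, rose from 1.51, 1.23 and 1.44 to 5.84, 5.88, 9.18 and 5.22 CPM on HFD. It fell from 19.7, 24.4, 24.0 and 22.8 to 6.41, 6.44, 9.89 and 10.0 CPM on MCD, and the groups of neither cohort overlapped. For Mvd the HFD and MCD livers overlapped, while the ND livers lay below them in the HFD cohort and above them in the MCD cohort. The log2 fold changes of Mvd were 2.22 (SE 0.23, adjusted p = 5.72e-05) and -1.47 (SE 0.19, adjusted p = 2.41e-05).

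The sterol dehydrogenase Nsdhl followed the same course, from 7.55, 10.9 and 14.8 to 28.0, 26.4, 35.5 and 30.0 CPM on HFD and from 59.1, 132, 88.8 and 120 to 25.1, 28.7, 30.8 and 35.3 CPM on MCD. Its HFD and MCD livers overlapped too, between the ND livers of the HFD cohort and those of the MCD cohort. Acat2, the cytosolic acetoacetyl-CoA thiolase, changed by 0.80 (SE 0.13) and -1.14 (SE 0.12) on the log2 scale, and the sterol C5-desaturase Sc5d by 0.63 (SE 0.12) and -1.22 (SE 0.11). Without ND replicate 1 of the HFD cohort 7 members rose on HFD and 7 were opposite, and without the acinar libraries no member was called on HFD, where the list medians were 0.79 on HFD and -1.20 on MCD.

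A sterol regulatory element of the form TCACNCCAC was searched on both strands of the 250 bases before each gene start in RefSeq (GRCm38.p6). It was found in 346 of 32851 such windows (1.05%) and in 1 of the 17 cholesterol synthesis genes with a window, Hmgcs1, the cytosolic HMG-CoA synthase (gene ID 208715, chr13:119690351-119708260), which was chosen for that match after its values were seen. Hmgcs1 rose from 101, 125 and 137 to 257, 269, 362 and 210 CPM on HFD and fell from 235, 680, 383 and 335 to 114, 123, 145 and 169 CPM on MCD, with log2 fold changes of 1.18 (SE 0.29, adjusted p = 0.0144) and -1.57 (SE 0.27, adjusted p = 0.000262). Its groups did not overlap in either cohort, and its HFD call was lost without ND replicate 1 of the HFD cohort. The window lies on the plus strand at chr13:119690101-119690350 and is shown with the match in capitals.
Hmgcs1: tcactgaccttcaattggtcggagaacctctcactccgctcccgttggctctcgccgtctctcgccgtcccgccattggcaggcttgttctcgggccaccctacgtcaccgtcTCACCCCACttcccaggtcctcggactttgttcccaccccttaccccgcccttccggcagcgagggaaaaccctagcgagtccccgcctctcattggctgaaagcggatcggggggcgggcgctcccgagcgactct

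Fatty acid oxidation genes ran the other way in part. Of 48 tested members 3 rose and 13 fell on HFD, and 23 rose and 7 fell on MCD. Among all genes tested 7.94% rose and 7.05% fell on HFD, and 22% rose and 23.2% fell on MCD. In the class lower on HFD and higher on MCD were 8 members, against 1.91% of all genes, and none had the reverse pattern. The list medians were -0.29 on HFD and 0.43 on MCD. A difference was called for 23 members, against 32.4% of all genes. Ehhadh (gene ID 74147, chr16:21761285-21787834), the peroxisomal bifunctional enzyme of beta-oxidation, fell from 4052, 3656 and 4775 to 697, 692, 786 and 507 CPM on HFD. It rose from 279, 305, 318 and 286 to 799, 635, 376 and 623 CPM on MCD, and the groups did not overlap within either cohort. For Ehhadh the HFD and MCD livers overlapped, while the ND livers lay above them in the HFD cohort and below them in the MCD cohort. The log2 fold changes of Ehhadh were -2.63 (SE 0.21, adjusted p = 2.54e-05) and 1.03 (SE 0.19, adjusted p = 0.000477).

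The peroxisomal thioesterase Acot4 fell from 92.7, 69.1 and 106 to 41.9, 48.1, 48.7 and 36.2 CPM on HFD and rose from 13.7, 11.3, 10.4 and 7.87 to 71.7, 64.9, 48.5 and 57.1 CPM on MCD. Cyp4a31, a further omega-hydroxylase of the Cyp4a family, changed by -1.24 (SE 0.27) and 4.24 (SE 0.28) on the log2 scale; members of this family are close copies and single values are uncertain. Bdh1, the mitochondrial ketone body dehydrogenase, was higher on both diets, by 0.45 (SE 0.13) and 0.87 (SE 0.12), with its HFD call lost in 5 of the 15 fits without 1 library. With 1 library left out at a time the count of members lower on HFD ran from 7 to 17, with 8, 7, 8, 8 and 8 without ND replicates 2 and 3 and HFD replicates 1, 2 and 4 of the HFD cohort. Without the acinar libraries 1 member was lower on HFD. Under scaling by library size alone 41 members were higher on MCD and 1 lower.

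**Figure D3:**
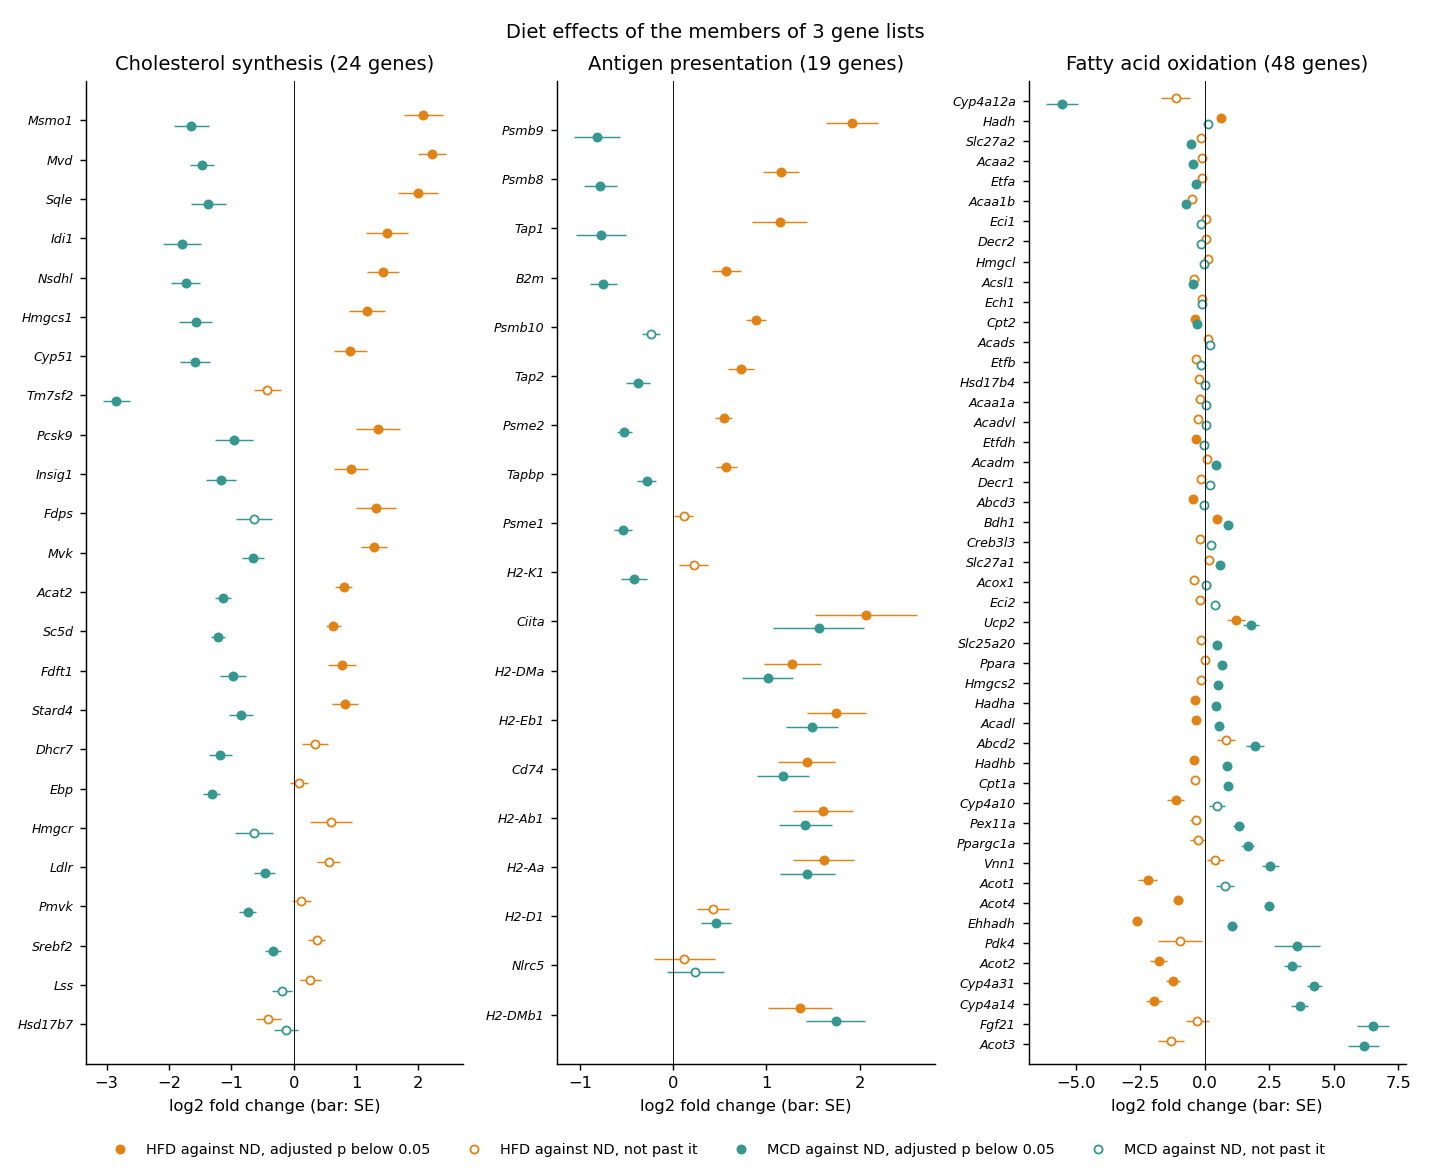
Log2 fold changes with their standard errors as bars for the 24 cholesterol synthesis, 19 antigen presentation and 48 fatty acid oxidation genes tested, HFD in orange and MCD in green, filled where the adjusted p was below 0.05 and ordered by the difference of differences. Most cholesterol genes lie right of 0 on HFD and left of 0 on MCD, class II genes such as H2-Eb1 lie right of 0 on both, and Cyp4a14, Cyp4a31 and Ehhadh lie left of 0 on HFD and right of 0 on MCD.

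The antigen presentation list split by pathway. Of its 19 tested members 15 rose and 0 fell on HFD, and 8 rose and 9 fell on MCD. Over all genes 7.94% rose and 7.05% fell on HFD, and 22% rose and 23.2% fell on MCD. The shares were 2.27% for genes higher on both diets and 2.76% for genes higher on HFD and lower on MCD. The 7 members higher on both diets were the class II genes H2-Aa, H2-Ab1, H2-Eb1, H2-DMa and H2-DMb1, the invariant chain Cd74 and the class II transactivator Ciita. The 7 members higher on HFD and lower on MCD belong to class I processing and loading: B2m, Tap1, Tap2, Tapbp, Psmb8, Psmb9 and Psme2. They spanned 0.54 to 1.92 on HFD and -0.82 to -0.28 on MCD, whereas the class II group spanned 1.28 to 2.07 on HFD and 1.01 to 1.74 on MCD. These groupings were named after their values were seen.

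Psmb9 (gene ID 16912, chr17:34182030-34187330), an inducible subunit of the immunoproteasome, rose from 4.04, 6.25 and 5.66 to 26.6, 18.9, 16.6 and 18.2 CPM on HFD. In the MCD cohort it had 8.56, 17.6, 10.6 and 9.09 CPM on ND and 7.46, 6.63, 7.5 and 4.42 CPM on MCD. Its groups did not overlap in either cohort, and its MCD effect of -0.82 (SE 0.24, adjusted p = 0.0129) was lost without ND replicate 2 of that cohort, where it was -0.53. B2m, the light chain of class I molecules, rose from 1195, 1267 and 1275 to 2145, 1740, 1672 and 1832 CPM on HFD and fell from 1486, 2279, 1437 and 1415 to 926, 978, 961 and 1077 CPM on MCD. Psmb8 changed by 1.16 (SE 0.19) and -0.78 (SE 0.17) on the log2 scale, and Psme2, a subunit of the proteasome activator PA28, by 0.54 (SE 0.09) and -0.52 (SE 0.08). Among class II genes H2-Eb1, a beta chain, rose from 10.9, 8.03 and 10.4 to 50, 29.5, 14.7 and 37.0 CPM on HFD and from 14, 7.76, 10.3 and 10.7 to 27.4, 34.4, 33.4 and 24.6 CPM on MCD, with no called difference (adjusted p = 0.668). In these bulk samples more cells of a type and more RNA per cell cannot be told apart. Summed Kupffer cell markers stood at 500 to 604 CPM on ND and 454 to 921 CPM on HFD, and at 473 to 858 CPM on ND and 604 to 1385 CPM on MCD. Among 17 such markers 1 rose and 1 fell on HFD, where 15% of all genes were called. On MCD 6 rose and 1 fell, where 45.2% of all genes were called. The marker that fell on both diets was C6, which is also in the male-biased list. Among 17 lymphocyte markers 2 rose on HFD, and 3 rose and 4 fell on MCD. In HFD replicates 1 to 4 lymphocyte markers summed to 14.6, 194, 9.35 and 19.9 CPM and Kupffer cell markers to 921, 631, 454 and 769 CPM. The part of either marker set in the class II result was not tested.

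The class I result depended on single livers and on the scaling. In place of 7 opposite members there were 3 without ND replicate 2 of the MCD cohort and 4 without MCD replicate 4. With library size alone none was opposite, since 0 members were then lower on MCD, and the list's MCD median turned from -0.23 to 0.22. Members higher on both diets numbered 4 without ND replicate 2 of the HFD cohort. The HFD call of B2m was lost without any of ND replicates 1, 2 and 3 or HFD replicates 1 and 4 of the HFD cohort.

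Psmb9 and Tap1, the latter encoding a subunit of the peptide transporter into the endoplasmic reticulum (gene ID 21354, chr17:34187556-34197225), are transcribed away from each other, and both were opposite. Tap1 had 14.3, 15.5 and 16.4 CPM on ND and 45.7, 29.5, 29.5 and 31.1 CPM on HFD, and 12.8, 25.3, 17.0 and 12.7 CPM on ND and 12.4, 11, 11.2 and 5.0 CPM on MCD. The groups did not overlap in either cohort, with the first HFD liver the highest, and the log2 fold changes were 1.14 (SE 0.29, adjusted p = 0.0182) and -0.77 (SE 0.27, adjusted p = 0.028). Both calls of Tap1 were lost in some of the fits without 1 library, the MCD call without ND replicate 2, where it was -0.51, ND replicate 3 or MCD replicate 4. The 225 bases between the RefSeq starts, on the plus strand at chr17:34187331-34187555, are shown since they lie upstream of both.
Psmb9-Tap1: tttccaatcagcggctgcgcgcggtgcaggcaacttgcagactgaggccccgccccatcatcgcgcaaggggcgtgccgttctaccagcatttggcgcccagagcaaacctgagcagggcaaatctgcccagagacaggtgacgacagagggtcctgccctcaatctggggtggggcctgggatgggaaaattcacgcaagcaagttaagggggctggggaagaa

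Of 36 tested interferon-stimulated genes 17 rose and 0 fell on HFD, and 3 rose and 8 fell on MCD. Over all genes 7.94% rose and 7.05% fell on HFD, and 22% rose and 23.2% fell on MCD. The list medians were 1.13 on HFD and -0.12 on MCD, and the difference was called for 17 members, against 32.4% of all genes. Scaled by library size alone, 8 rose and 2 fell on MCD, with a median of 0.34, and 7 differences were called. Gbp2, an interferon-induced guanylate-binding protein, rose on both diets, from 5.20, 2.85 and 3.85 to 33.1, 19.6, 9.29 and 22.7 CPM on HFD and from 3.04, 5.51, 3.07 and 2.99 to 9.52, 8.56, 8.56 and 5.68 CPM on MCD. Rtp4, an interferon-induced receptor chaperone, was the only opposite member, at 0.93 (SE 0.27, adjusted p = 0.0347) and -0.72 (SE 0.25, adjusted p = 0.0289), its HFD call lost in 5 of the 15 fits without 1 library and its MCD call in 3. The HFD count was 6, 8 and 10 without ND replicates 1, 2 and 3 of the HFD cohort and 8 and 9 without HFD replicates 1 and 4, and 11 members rose on MCD without ND replicate 2 of the MCD cohort. That liver had the highest level of its group for B2m, Gbp2, Psmb9, Tap1 and Rtp4.

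The factor ATF4 induces amino acid response genes when amino acids are short. Of 34 tested members 5 rose and 4 fell on HFD, and 16 rose and 3 fell on MCD. Among all genes tested 7.94% rose and 7.05% fell on HFD, and 22% rose and 23.2% fell on MCD. The list medians were 0.21 and 0.87. A difference was called for 17 members, against 32.4% of all genes. Besides Asns, 2 members were opposite. The transcription factor Atf5 fell from 615, 644 and 634 to 239, 209, 302 and 180 CPM on HFD and rose from 361, 241, 272 and 196 to 480, 372, 556 and 578 CPM on MCD. Shmt2, the mitochondrial serine hydroxymethyltransferase, had the reverse pattern, at 0.46 (SE 0.10) on HFD and -0.61 (SE 0.10) on MCD, with its HFD call lost without ND replicate 1 of the HFD cohort. Members higher on HFD numbered 1 without that liver, 2 without ND replicate 2 and 3 without ND replicate 3 or HFD replicate 1, 2 or 4. Psat1, of serine synthesis, had 0.601, 0.384 and 0.448 and 0.660, 0.696, 0.298 and 0.565 CPM on ND and HFD, and rose from 0.777, 0.382, 0.484 and 0.845 to 34.5, 22.2, 22.3 and 14.4 CPM on MCD, with a difference of -5.02 (SE 0.49, adjusted p = 3.82e-06). Atf3, a stress-induced factor, rose on both diets, by 2.36 (SE 0.52) and 4.40 (SE 0.48).

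The CEBP-ATF response element was searched in the form TGATGNAA on both strands of the same windows. It was present in 1134 of 32851 windows (3.45%) and in 10 of the 30 listed genes with a window: Aars, Asns, Atf3, Chac1, Fgf21, Nupr1, Pycr1, Slc7a11, Tars and Vldlr. The Asns window is shown because that gene fell on HFD and rose on MCD from overlapping ND levels. It lies on the minus strand at chr6:7693210-7693459, with the match in capitals.
Asns: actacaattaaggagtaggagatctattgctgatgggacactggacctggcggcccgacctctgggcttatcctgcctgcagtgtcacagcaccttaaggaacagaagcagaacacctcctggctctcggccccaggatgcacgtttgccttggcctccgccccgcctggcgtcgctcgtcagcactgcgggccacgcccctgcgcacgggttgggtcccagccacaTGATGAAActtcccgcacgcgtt

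In methionine metabolism Mat1a, the hepatic methionine adenosyltransferase, was opposite and Cbs, cystathionine beta-synthase, shared. Mat1a fell from 10217, 11236 and 8518 to 4718, 4674, 4481 and 4409 CPM on HFD and rose from 3926, 2742, 2934 and 2546 to 5219, 4512, 4504 and 7062 CPM on MCD, without overlap in either cohort. Cbs fell from 481, 542 and 449 to 308, 297, 314 and 272 CPM on HFD and from 1010, 588, 681 and 461 to 255, 214, 251 and 306 CPM on MCD, again without overlap, and its HFD call was lost in 5 of the 15 fits without 1 library. Of the 32 tested members of the list 2 rose and 5 fell on HFD, and 9 rose and 11 fell on MCD, against 7.94% higher and 7.05% lower of all genes on HFD and 22% and 23.2% on MCD. Both balances turned under scaling by library size alone, to 6 higher and 3 lower on HFD and 14 higher and 5 lower on MCD. With 1 library left out the members lower on HFD numbered 1 to 5 and those higher 0 to 4, with 1 lower without ND replicate 2 of the HFD cohort and 0 higher without its ND replicate 1.

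Of 24 tested chaperones and folding genes of the endoplasmic reticulum 1 rose and 0 fell on HFD, and 2 rose and 19 fell on MCD. Over all genes 7.94% rose and 7.05% fell on HFD, and 22% rose and 23.2% fell on MCD. The list medians were 0.34 and -0.66, and the difference was called for 18 members, against 32.4% of all genes. Herpud1, of endoplasmic reticulum-associated degradation, was the 1 opposite member, at 0.80 (SE 0.26, adjusted p = 0.0484) and -0.67 (SE 0.23, adjusted p = 0.0295). Its HFD call was lost in 8 of the 15 fits without 1 library and its MCD call in 5. Under scaling by library size alone 6 members fell and 5 rose on MCD and 8 rose on HFD. On HFD 10 rose with limma-voom with library quality weights and 11 with each cohort fitted alone.

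The endoplasmic reticulum stress element, written as CCAAT, 9 bases of any kind, CCACG was searched on both strands and was present in 37 of 32851 windows (0.113%) and in 8 of the 20 listed genes with a window: Calr, Canx, Creld2, Dnajc3, Hsp90b1, Hspa5, Pdia6 and Syvn1. Hspa5 and Creld2 are shown as examples, chosen after their values were seen. Hspa5, the chaperone BiP, had 773, 553 and 851 and 1192, 1105, 921 and 1008 CPM on ND and HFD, and 1269, 793, 1690 and 1153 and 641, 594, 751 and 1123 CPM on ND and MCD, with an MCD effect of -0.66 (SE 0.23, adjusted p = 0.0292) and an HFD effect of 0.54 (SE 0.25, adjusted p = 0.157). The MCD groups overlapped, with the fourth MCD liver the highest of its group. Creld2, a chaperone-associated protein of the same compartment, changed by -1.38 (SE 0.46, adjusted p = 0.0236) on MCD. Its MCD livers had 15.6, 18.9, 23.0 and 63.7 CPM in rising order, and the highest, the fourth MCD liver, overlapped the ND range. The MCD calls of Hspa5 and Creld2 were lost in 5 and 4 of the 15 fits without 1 library. The windows lie at chr2:34771840-34772089 and chr15:88819396-88819645 on the plus strand, with the matches in capitals, that of Creld2 being on the opposite strand.
Hspa5: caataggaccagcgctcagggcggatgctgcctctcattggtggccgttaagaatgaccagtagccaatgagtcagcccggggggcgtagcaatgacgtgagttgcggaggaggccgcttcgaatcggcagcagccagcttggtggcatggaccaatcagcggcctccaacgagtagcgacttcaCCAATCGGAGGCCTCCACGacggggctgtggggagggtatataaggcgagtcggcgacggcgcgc
Creld2: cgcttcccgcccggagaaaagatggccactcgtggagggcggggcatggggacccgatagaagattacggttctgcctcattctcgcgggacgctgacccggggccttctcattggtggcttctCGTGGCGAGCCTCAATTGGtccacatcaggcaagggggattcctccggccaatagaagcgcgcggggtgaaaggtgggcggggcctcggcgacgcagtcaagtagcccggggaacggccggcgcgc

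Of 16 tested genes of insulin and leptin signalling 1 rose and 4 fell on HFD, against 7.94% and 7.05% of all genes. On MCD 6 rose and 1 fell, where 45.2% of all genes were called. The 3 opposite members, Lepr, Irs2 and Akt1, were lower on HFD and higher on MCD, a class with 1.91% of all genes. Scaled by library size alone, 3 rose and 3 fell on HFD and 13 rose and 0 fell on MCD. The insulin receptor substrate Irs2 fell from 41.9, 62.2 and 47.0 to 11.3, 8.55, 11 and 9.25 CPM on HFD. It had 46.4, 20, 10.6 and 23.6 CPM on ND and 60.0, 106, 35.1 and 35.9 CPM on MCD, where the groups overlapped, and its MCD effect of 1.23 (SE 0.39, adjusted p = 0.0192) was lost without ND replicate 2 or MCD replicate 2. MCD replicate 2 is the liver with 714 CPM of immediate-early genes, and without it 3 members of the list rose on MCD. The kinase Akt1 changed by -0.35 (SE 0.10) and 0.37 (SE 0.10), and its HFD call was lost in 9 of the 15 fits without 1 library. The growth hormone receptor Ghr rose from 265, 313 and 349 to 541, 558, 508 and 545 CPM on HFD and fell from 417, 458, 524 and 582 to 161, 128, 138 and 164 CPM on MCD, without overlap in either cohort and with a difference of 2.54 (SE 0.18, adjusted p = 2.94e-07).

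Genes that are higher in male than in female liver, which growth hormone pulses maintain, all fell on MCD, and some also fell on HFD. Over all genes tested 7.94% rose and 7.05% fell on HFD, 23.2% fell on MCD and 1.68% fell on both. Of 24 tested members of this list 2 rose and 7 fell on HFD and 24 fell on MCD, with medians of -0.79 and -4.16, and 7 were lower on both. Of these, C8b and C6, which encode components of the terminal complement complex, fell from 280, 335 and 293 to 132, 128, 148 and 106 CPM and from 187, 256 and 221 to 112, 111, 128 and 71.4 CPM on HFD. On MCD C8b fell from 485, 487, 431 and 548 to 32.7, 32.1, 34.0 and 47.5 CPM and C6 from 265, 224, 199 and 320 to 17.2, 16.4, 20.4 and 18.8 CPM. Both fell further on MCD, with differences of 2.50 (SE 0.20, adjusted p = 8.14e-07) and 2.72 (SE 0.26, adjusted p = 3.78e-06). Opposite were Nudt7, a peroxisomal CoA hydrolase, at 0.70 (SE 0.19) and -2.68 (SE 0.19), and the cytochrome P450 Cyp2u1, at 1.10 (SE 0.28) and -2.94 (SE 0.27). The HFD call of Cyp2u1 was lost without ND replicate 2 or 3 of the HFD cohort, and that of Nudt7 in 5 of the 15 fits without 1 library.

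Female-biased genes split. Of 30 tested members 5 rose and 8 fell on HFD and 21 rose and 3 fell on MCD, with medians of -1.02 and 2.57. Over all genes 7.94% rose and 7.05% fell on HFD, and 22% rose and 23.2% fell on MCD. In the list 4 were higher on both, against 2.27% of all genes, and 2 lower on both, against 1.68%. The class higher on HFD and lower on MCD held 1 member, against 2.76% of all genes. The reverse class, lower on HFD and higher on MCD, held 4 members, against 1.91%. Cyp2b9 (gene ID 13094, chr7:26173350-26210661), a xenobiotic-metabolising cytochrome P450, rose from 0.0650, 0.101 and 0.331 to 73.9, 109, 59.3 and 305 CPM on HFD. On MCD it rose from 0.141, 0.572, 0.819 and 0 to 206, 161, 217 and 357 CPM, so all 8 diet livers were above all 7 ND livers. Its near copy Cyp2b13 had no count in the ND livers of the MCD cohort and was at least 551-fold higher on MCD, against the floor of 3 counts. Hao2, a hydroxyacid oxidase, was 107-fold higher on HFD (95% counting interval 36.5 to 523) and at least 35.5-fold higher on MCD. In contrast Fmo2, a flavin monooxygenase, fell from 33.4, 42.7 and 17.1 to 10.8, 12.5, 10.1 and 13.8 CPM on HFD and rose from 7.11, 3.82, 7.19 and 8.10 to 63.6, 58.7, 47.3 and 66.7 CPM on MCD, and Cyp3a16, a cytochrome P450, changed by -3.44 (SE 0.73) and 1.70 (SE 0.56), with its MCD call lost in 3 of the 15 fits without 1 library. Female-biased genes higher on HFD numbered 3 without ND replicate 1 or 2 or any 1 HFD replicate, and those lower on HFD 5 without ND replicate 3.

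Of 32 tested members of the lipid droplet and uptake list 5 rose and 4 fell on HFD, and 20 rose and 2 fell on MCD, against 15% of all genes called on HFD and 45.2% on MCD, with medians of 0.07 and 1.17. Cd36, a fatty acid transporter, rose on both, from 116, 57.0 and 136 to 297, 255, 226 and 283 CPM on HFD and from 35.7, 39.3, 37.4 and 38.4 to 390, 510, 420 and 497 CPM on MCD, further on MCD by a difference of -2.23 (SE 0.29, adjusted p = 4.7e-05). Plin5, a droplet coat protein of oxidative tissues, fell from 243, 168 and 167 to 91.2, 113, 138 and 80.1 CPM on HFD and rose from 28.2, 26.2, 41.3 and 34.1 to 89.8, 86.1, 95.2 and 67.1 CPM on MCD. Pnpla2, adipose triglyceride lipase, changed by -0.86 (SE 0.19) and 1.59 (SE 0.18). The HFD calls of Plin5 and Pnpla2 were lost without ND replicate 1 of the HFD cohort, and no member of the list was then lower on HFD and higher on MCD, while 1 rose and 1 fell on HFD. Without ND replicate 2 of that cohort or HFD replicate 2, 2 members rose on HFD.

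**Figure D4:**
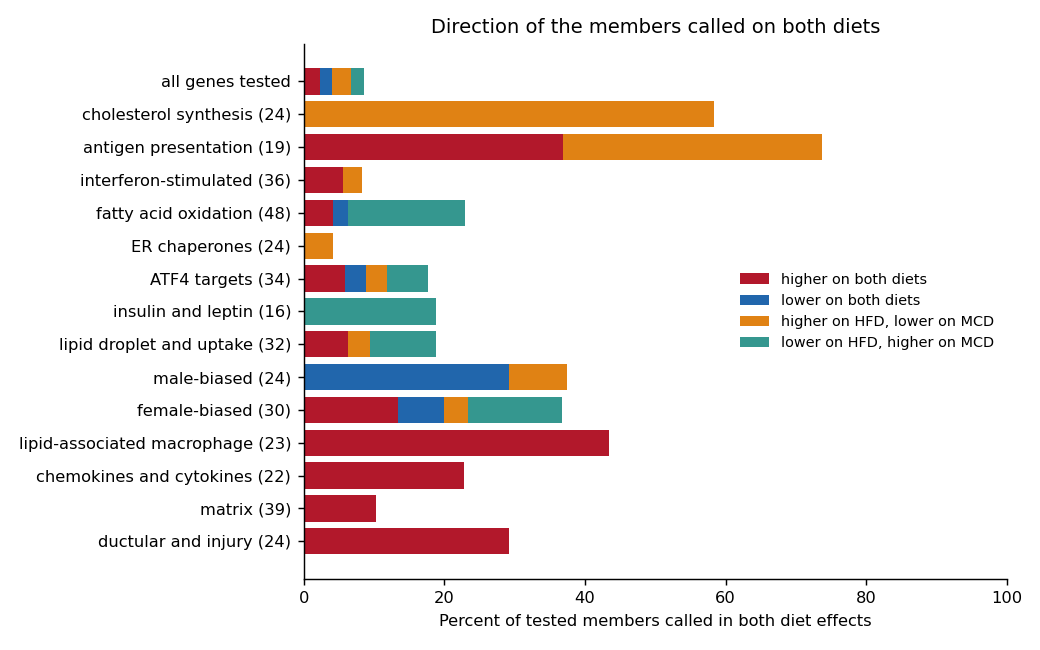
Bars give the percent of the tested members of 14 gene lists (number in brackets) that were called on both diets, by direction, with all 16291 genes at the top. Cholesterol synthesis is mostly in the class higher on HFD and lower on MCD, the fatty acid oxidation genes called on both diets are mostly in the reverse class, and the lipid-associated macrophage, chemokine, matrix and ductular lists hold, of these classes, members higher on both diets.

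Lists of macrophage, chemokine, matrix and ductular genes held shared increases and no opposite member. Of 23 tested genes of lipid-associated macrophages 11 rose on HFD and 20 on MCD with 0 falling on either, and 10 rose on both. Their summed level did not rise on HFD, at 1736 to 2528 CPM on ND and 2169 to 2422 CPM on HFD. It stood at 996 to 1339 CPM on ND and 3306 to 6017 CPM on MCD. The list includes Plin2, a droplet coat protein that hepatocytes also express. Of 22 chemokines and cytokines 6 rose on HFD, 15 rose and 1 fell on MCD, and 5 rose on both. Of 39 matrix genes 7 rose on HFD, 19 rose and 2 fell on MCD, and 4 rose on both, and of 24 ductular and injury genes 7 rose on HFD and 17 on MCD, all 7 of them on both. Over all genes tested 7.94% rose on HFD, 22% on MCD and 2.27% on both. The medians on HFD and MCD were 1.34 and 2.53 for the macrophage list, 1.13 and 1.45 for chemokines, 0.66 and 0.99 for matrix, and 0.52 and 1.06 for the ductular list. The counts on both diets depended on single livers. Without ND replicates 1, 2 and 3 of the HFD cohort 6, 4 and 6 macrophage genes and 1, 1 and 2 matrix genes rose on both, and 9 matrix genes did without ND replicate 1 of the MCD cohort. Ductular genes numbered 4 without ND replicate 1 or 2 of the HFD cohort, and chemokines 3 without either of these or HFD replicate 1 or 4 and 8 without HFD replicate 3. Summed stellate cell markers, of which 1 of 15 rose on HFD and 9 on MCD, stood at 389 to 436 CPM on ND and 393 to 528 CPM on HFD, and at 212 to 451 CPM on ND and 629 to 971 CPM on MCD. Their part in the matrix result was not tested.

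Lcn2 (gene ID 16819, chr2:32384637-32387739), the acute-phase protein lipocalin 2, had 4.6, 3.32 and 3.52 CPM on ND and 68.8, 28.4, 28.3 and 85.3 CPM on HFD. It had 6.09, 6.51, 1.64 and 2.37 CPM on ND and 123, 462, 268 and 161 CPM on MCD, and no diet liver overlapped an ND liver. Its log2 fold changes were 3.79 (SE 0.62, adjusted p = 0.00129) and 5.93 (SE 0.60, adjusted p = 2.78e-06); the difference of -2.15 (SE 0.73, adjusted p = 0.0359) was lost in 9 of the 15 fits without 1 library. The monocyte chemokine Ccl2 rose by 3.03 (SE 0.51) and 2.81 (SE 0.45), and Anxa2, a membrane-binding annexin, by 2.20 (SE 0.32) and 3.21 (SE 0.30), with no called difference (adjusted p = 0.824 and 0.0679). Lgals1, galectin 1, rose further on HFD, from 9.95, 7.46 and 11.8 to 69.3, 65.5, 58.9 and 92.5 CPM, than on MCD, from 12.9, 14, 17.8 and 16.2 to 29.9, 59.8, 33.8 and 37.2 CPM, with a difference of 1.48 (SE 0.31, adjusted p = 0.00241).

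The genes of largest shared rise outside the sex-biased list were Ubd, the ubiquitin-like modifier FAT10, the organic anion transporter Slc22a27, the collagenase Mmp13, the pattern receptor Clec4e and the cornified envelope protein Sprr1a. Ubd rose from 0.552, 0.566 and 0.448 to 11.6, 4.16, 3.04 and 11.4 CPM on HFD and from 0.229, 0.869, 0.242 and 0.268 to 12.2, 16.4, 8.02 and 9.73 CPM on MCD. Slc22a27 changed by 4.32 (SE 0.41) and 5.83 (SE 0.38), and Mmp13 by 4.02 (SE 0.91) and 4.40 (SE 0.72) at no more than 5.06 CPM in any liver, its HFD call lost without ND replicate 1 of the HFD cohort. Clec4e had no count in the ND livers of the HFD cohort and was at least 55.5-fold higher on HFD, and 82.9-fold higher on MCD (95% counting interval 28.1 to 404). Sprr1a was 107-fold higher on HFD (interval 29.4 to 888) and rose to 10.2, 40.3, 14.4 and 11.9 CPM on MCD. The second MCD liver was the highest of its group for Lcn2, Ubd, Mmp13, Clec4e and Sprr1a, and it is the liver with the most immediate-early RNA.

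Ces2a and Cyp4a12b were among the genes of largest shared decrease. Ces2a (gene ID 102022, chr8:104734003-104741634), a carboxylesterase, fell from 345, 364 and 267 to 91.7, 105, 109 and 78.7 CPM on HFD. It fell from 420, 313, 564 and 418 to 21.5, 17.1, 14.6 and 27.1 CPM on MCD, with no overlap in either cohort. Its log2 fold changes were -1.76 (SE 0.21, adjusted p = 0.000179) and -4.41 (SE 0.23, adjusted p = 7.62e-09), further down on MCD by 2.65 (SE 0.30, adjusted p = 1.43e-05). Cyp4a12b, a male-biased omega-hydroxylase, fell from 182, 174 and 192 to 36.5, 33.0, 52.9 and 16.1 CPM on HFD and from 145, 184, 136 and 156 to 3.38, 2.29, 3.38 and 6.86 CPM on MCD. Gstp1, a glutathione transferase, fell from 865, 1200 and 657 to 292, 360, 377 and 279 CPM and from 1402, 973, 1404 and 1495 to 326, 261, 290 and 293 CPM.

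The other genes chosen by effect size in this class were Adgrf1, Slc13a2, Srgap3, Med12l, Cspg5 and Ttyh1. The adhesion receptor Adgrf1 changed by -3.03 (SE 0.40) on HFD and -6.14 (SE 0.41) on MCD, and the dicarboxylate transporter Slc13a2 by -2.79 (SE 0.54) and -4.89 (SE 0.56). The GTPase-activating protein Srgap3 changed by -2.86 (SE 0.37) and -2.95 (SE 0.37), the mediator subunit Med12l by -2.11 (SE 0.36) and -2.11 (SE 0.35), and the proteoglycan Cspg5 by -2.62 (SE 0.47) and -4.22 (SE 0.50). Ttyh1 changed by -1.75 (SE 0.53) and -2.21 (SE 0.52), and its HFD call was lost in 6 of the 15 fits without 1 library. The difference between diets was 0.09 (SE 0.49, adjusted p = 0.907) for Srgap3.

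Of the 106 shared genes with a called difference, 46 rose further on MCD and 18 further on HFD, and 36 fell further on MCD and 6 further on HFD. Ly6d, a surface protein of the Ly6 family, rose from 3.33, 3.36 and 5.66 to 18.6, 9.28, 16.3 and 18.6 CPM on HFD and from 0.706, 0.594, 0.298 and 0.371 to 43.6, 119, 88.9 and 23.4 CPM on MCD. The arachidonic acid epoxygenase Cyp2c23 fell from 186, 206 and 203 to 140, 164, 163 and 145 CPM on HFD and from 424, 439, 362 and 385 to 60.2, 77.9, 77.8 and 81.1 CPM on MCD, a difference of 2.07 (SE 0.15, adjusted p = 4.39e-07). The HFD call of Cyp2c23 was lost in 5 of the 15 fits without 1 library, and that of Ly6d without ND replicate 1 or 2 of the HFD cohort.

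Among genes called on 1 diet with a called difference, Igfbp2, an insulin-like growth factor binding protein, fell from 498, 712 and 474 to 163, 200, 259 and 140 CPM on HFD. It had 420, 626, 547 and 643 and 737, 741, 708 and 683 CPM on ND and MCD, an effect of 0.36 (SE 0.18, adjusted p = 0.125). Smad9, a BMP signal transducer, also fell on HFD alone, from 19.7, 27.6 and 25.2 to 3.93, 4.47, 2.03 and 2.42 CPM, and Ccng1, cyclin G1, rose on HFD alone, from 30.7, 29.9 and 31.3 to 76.2, 60.6, 64.8 and 64.2 CPM. Hnmt, histamine methyltransferase, and the transporter Slc17a4 rose by 1.55 (SE 0.14) and 2.04 (SE 0.17) on HFD, with MCD effects of -0.08 (SE 0.12) and -0.21 (SE 0.14).

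On MCD alone, Scd1, the stearoyl-CoA desaturase, fell from 12949, 9420, 9144 and 6341 to 148, 131, 114 and 47.6 CPM, whereas the HFD cohort had 5472, 4119 and 6595 CPM on ND and 6106, 5080, 7207 and 4004 CPM on HFD. The difference was 6.48 (SE 0.50, adjusted p = 6.74e-07). The major urinary protein Mup3, of a family of near-identical copies, changed by -6.23 (SE 0.24) on MCD and Lrit1 by -6.41 (SE 0.21) on the log2 scale, with HFD effects of -0.36 (SE 0.20) and 0.20 (SE 0.16). Apoa4, an apolipoprotein, rose from 201, 95.8, 113 and 78.6 to 4629, 7497, 5075 and 2574 CPM on MCD and had 1775, 2432 and 1578 CPM on ND and 1659, 1021, 1465 and 1822 CPM on HFD. Car2, carbonic anhydrase 2, and App, the amyloid precursor protein, rose by 3.53 (SE 0.19) and 2.95 (SE 0.16) on MCD, with HFD effects of -0.39 (SE 0.19) and 0.09 (SE 0.16). Plin2, the main droplet coat protein of hepatocytes, rose from 232, 301, 341 and 287 to 1189, 1215, 934 and 721 CPM on MCD and had 1680, 1084 and 1617 CPM on ND and 1037, 1001, 1223 and 865 CPM on HFD.

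The ND groups of the 2 cohorts differed from each other in 3622 genes (22.2%), 1717 higher in the HFD cohort (10.5%) and 1905 lower (11.7%). Scaled by library size alone, 2057 were higher and 1333 lower. This comparison shares its libraries with both diet effects, so the choice of a class fixes part of its direction there, and its values are given side by side with no test. The median ND difference, HFD cohort against MCD cohort, was -0.66 in the 450 genes higher on HFD and lower on MCD and 0.57 in the 311 genes of the reverse class, on the log2 scale. It was -0.37 in the genes higher on both diets, 0.19 in those lower on both and -0.02 over all genes. The HFD livers stood above the MCD livers by a median of 0.96 in the first opposite class and below them by a median of -0.66 in the second. The cholesterol synthesis list had a median ND difference of -2.14 and the fatty acid oxidation list one of 1.02, against diet effects of 0.81 and -1.15 and of -0.29 and 0.43. For Mvd the ND groups differed by -4.02 (SE 0.24, adjusted p = 1.79e-07), for Ehhadh by 3.81 (SE 0.21, adjusted p = 1.08e-07) and for Thrsp by -5.13 (SE 0.50, adjusted p = 7.14e-06), each more than either of that gene's own diet effects.

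**Figure D5:**
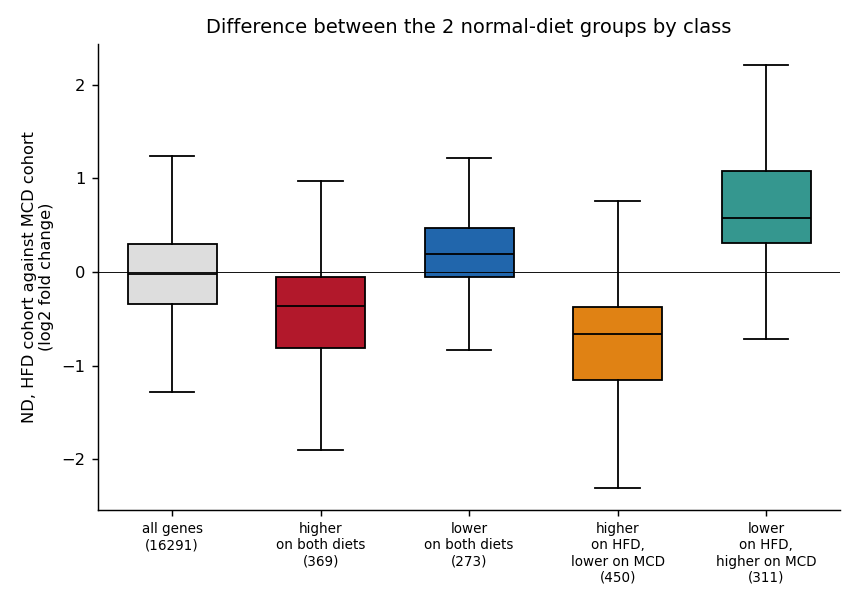
Boxes give the median and quartiles of the log2 fold change between the ND livers of the HFD cohort and those of the MCD cohort, with whiskers to 1.5 times the box and outliers left out, for all 16291 genes and the 4 classes called on both diets. The box of genes higher on HFD and lower on MCD lies below 0 and that of the reverse class above 0; the ND libraries also enter the diet effects that define the classes.

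Of 20 tested clock genes 4 rose and 2 fell on HFD and 4 rose and 4 fell on MCD, with a median ND difference of -1.02, and all of these counts other than the 4 lower on MCD changed by more than 1.5 times without single libraries. Over all genes 15% were called on HFD and 45.2% on MCD. Nr1d1, the repressor REV-ERB alpha, rose from 7.52, 6.45 and 17.2 to 49.7, 55.8, 50.2 and 71.9 CPM on HFD and fell from 88.4, 118, 76.5 and 73.2 to 55.9, 32.9, 37.6 and 40.1 CPM on MCD, with the ND groups -3.10 (SE 0.33, adjusted p = 1.47e-05) apart. Its paralog Nr1d2 rose on both diets, by 0.79 (SE 0.19) and 0.47 (SE 0.17), the MCD call being lost in 4 of the 15 fits without 1 library and the HFD call in 2. The hour at which livers were taken, and whether it was the same in both cohorts, is not stated in those sources.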

How the data were processed

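Livers were profiled by RNA sequencing of polyA RNA with a stranded kit, per the labels' protocols. The deposited files hold whole-number counts per gene, with gene IDs, symbols and no normalisation, per the file headers and values. The tools StringTie 2.1.3b, HISAT2 2.1.0, Trimmomatic 0.38 and FastQC 0.11.7 are named with no role, beside the build mm10, per the submitters' processing notes. How reads shared by near-identical genes were counted is not stated there.

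The 15 vehicle libraries, grouped by labelled cohort, diet and treatment, entered 1 edgeR 4.0.16 quasi-likelihood fit (R 4.3.3) with filterByExpr at a minimum count of 10 and TMM factors. Contrasts were HFD against ND, MCD against ND, their difference, and ND between cohorts, each adjusted by Benjamini-Hochberg over 16291 genes. Of the 45777 genes in the files 20826 had no count in these libraries. The labels number the samples of a group as biological replicates, but no source says outright that they are separate mice. The p-values therefore measure the spread between these samples. The lowest chi-square per degree of freedom between libraries of a group was 26.7, so none was counted as a copy of another. Counting intervals are exact at 95% and cover counting error only.

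Named genes were, in each of the 4 classes called on both diets, the 8 with the largest smaller effect among genes with at least 1 CPM in a group and no overlap of libraries. To these were added the 4 genes per direction of smallest p in the difference of differences among shared genes and among genes called on 1 diet, and, for each list, opposite members (all if 4 or fewer, otherwise the 4 of smallest p), the clearest shared member and the member of smallest p. Hmgcs1, Tap1, Hspa5 and Creld2 were chosen after their values were seen. The comparison, members and lists were chosen with earlier results of these data known, and 1 gene is not reported here. The fit was tested on simulated counts. Gene positions and promoter windows come from RefSeq (GRCm38.p6, the same build as mm10), which matched 16262 of the tested genes. A motif match is a description of letters, and the lack of a match says nothing of a factor. Alternatives were DESeq2 1.42.0 and limma-voom with library quality weights (limma 3.58.1). Further runs used other scaling, filters and thresholds, other sets of libraries, a replicate block and each library left out.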

Additional observations from a re-analysis of the deposited data

Results flagged for a closer look

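Of 285 groups of 4 livers examined, 92 genes and 3 marker sums in each of 3 groups, 24 held a liver far from the other 3 by Dixon's criterion; chance alone gives about 1 in 20 groups.

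In the ND livers of the MCD cohort the highest value stood apart for Acat2 (156 CPM), B2m (2279 CPM), Gbp2 (5.51 CPM), Ubd (0.869 CPM) and Clec4e (0.0636 CPM), each in ND replicate 2, and for Tuba8 (13.3 CPM) and Sprr1a (0.512 CPM), each in replicate 1. In the MCD livers it stood apart for Asns (39.7 CPM) in replicate 1, for Nr1d2 (126 CPM) and Sprr1a (40.3 CPM) in replicate 2, and for C8b (47.5 CPM), Car2 (61.9 CPM), Creld2 (63.7 CPM), Cyp2b13 (17.9 CPM) and Slc22a27 (58.0 CPM) in replicate 4. The lowest MCD liver stood apart for Cyp2c23 (60.2 CPM). In the HFD livers the highest value stood apart for Mvd (9.18 CPM, replicate 3) and Tap1 (45.7 CPM, replicate 1), and the lowest for Cspg5 (0.0992 CPM).

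Among marker sums, immediate-early genes reached 714 CPM in MCD replicate 2 and lymphocyte markers 194 CPM in HFD replicate 2. Acinar pancreas markers reached 3737 CPM in HFD replicate 4, 445 CPM in ND replicate 4 of the MCD cohort and 22.7 CPM in the highest MCD liver. The part of these sums in the diet effects was not tested.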

How the results depend on the processing

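No named gene's called effect changed sign under any alternative run. The counts are given in the order HFD genes, MCD genes, difference, ND between cohorts, then the classes higher on both, lower on both, higher on HFD and lower on MCD, and the reverse. Leaving out each library gave 1116 to 2964, 6489 to 7286, 4187 to 5421, 2339 to 4065, 201 to 424, 138 to 371, 205 to 515 and 142 to 405, and a correlation of 0.0936 to 0.214 between the diet effects. DESeq2 gave 3236 and 7741 diet calls, 564 genes higher on both and a correlation of 0.0439. limma-voom with library quality weights gave 4497 HFD genes, 587, 667, 766 and 548 in the classes and a correlation of 0.2045. Each cohort fitted alone gave 4030 HFD genes and a correlation of 0.166. Library size alone gave 959 genes higher and 69 lower on both diets, with 338 and 292 in the opposite classes. Without the 5 acinar libraries there were 30 HFD genes, 1368 differences, 422 genes between ND groups and 6, 8, 5 and 5 in the classes. The replicate block gave 1011 HFD genes, 941 between ND groups and 167, 97, 220 and 137 in the classes. Deviations of same-numbered livers correlated by -0.135 to 0.251 for HFD and by -0.156 to 0.0235 for MCD. With 3 or 4 livers per group these values cannot show whether the numbers pair the livers. An adjusted p below 0.01 gave 936 HFD genes, 3116 differences, 1916 between ND groups and 129, 90, 178 and 98. A change of at least 1 on the log2 scale gave 820, 3069, 2765 and 1151, with 188, 66, 108 and 57. Without a filter the correlation was 0.0423, and with CPM above 1 in 3 libraries 0.183. Of 242 calls of the named genes on HFD, on MCD or in the difference, DESeq2, RLE factors and all 22 libraries lost none, the block lost 15 and the set without acinar libraries 81. The cause of these shifts was not tested.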
